A study of Mus musculus with 19 samples.

Results

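The nuclear lamina and the LINC complex are represented here by 10 genes: the lamins Lmna, Lmnb1 and Lmnb2, the inner nuclear membrane proteins Lbr, Emd and Tmpo, the SUN proteins Sun1 and Sun2, and the nesprins Syne1 and Syne2. They were taken by name from the 47069 genes of the RNA-seq tables, through the Ensembl identifiers of the GRCm38 mouse assembly, and all 10 were found. Their levels did not enter the rule, though the list was chosen with earlier results of these data known. The lamina is the meshwork of lamin filaments beneath the inner nuclear membrane that holds chromatin at the nuclear edge. The LINC complex spans both nuclear membranes: SUN proteins of the inner membrane bind the KASH tails of nesprins of the outer membrane, and nesprins reach actin, microtubule motors and centrosomes in the cytoplasm. In the developing retina this bridge is known for moving nuclei, both in progenitors, whose nuclei travel with the cell cycle, and in newborn neurons on the way to their layer.

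The study compared retinal ganglion cells (RGCs) whose axons stay on the same side of the brain (iRGCs) with those whose axons cross at the optic chiasm (cRGCs). Both populations were sorted by flow cytometry from retinas of C57/DBA F1 embryos at E16.5, male and female pooled, genotype labelled WT, and both carried a Cre-dependent reporter that places green fluorescent protein fused to mouse Sun1 on the nuclear envelope. Recombination was driven by Slc6a4-Cre (Sert) for iRGCs, and by Pou4f2-Cre (Brn3b), targeted into the Brn3b locus, for cRGCs, whose retinas had the ventrotemporal region cut away. Cre marks a cell and all its descendants, so a sorted cell need not express the driver gene at the time of the sort. Each population had 3 RNA-seq libraries, and 13 further samples, of ATAC-seq, were not analysed here. The iRGC libraries held 28193178, 29759011 and 30874653 reads on genes and the cRGC libraries 28274471, 30454674 and 33638083. How many embryos went into each library was not given in the sources used here, so p-values measure the spread between these libraries.

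The driver genes and the cell type markers were read first, as a check of the labels. Slc6a4, the serotonin transporter, stood at 2.06, 33.3 and 116 CPM (the reads of a gene relative to all reads on genes of that library, set to a common total after TMM scaling) in iRGC replicates 1 to 3, and at 48.0, 35.4 and 30.5 CPM in cRGC replicates 1 to 3. It did not separate the populations (log2 fold change 0.41, SE 0.929, adjusted p = 0.768), and iRGC replicate 1 lay below every cRGC library. This library also had the fewest genes with a read (16564, against 19323 and 20283 in iRGC replicates 2 and 3). On the second principal component of log2 CPM, which held 18.1% of the variance, it stood at 74.8 and the other iRGC libraries at -66.4 and -40.5. Zic2, the transcription factor of ipsilateral neurons, was higher in all 3 iRGC libraries, at 133, 173 and 157 CPM against 56.9, 60.2 and 65.6 CPM. Pou4f2 stood at 74.7, 133 and 98.1 CPM in iRGCs and at 191, 196 and 293 CPM in cRGCs. The RGC markers were present in both populations but 15 of 16 were lower in iRGCs, while 14 of 16 retinal progenitor markers and 40 of 40 cell cycle genes were higher. Of all genes tested, 23.1% were lower and 23.3% higher at the threshold given below. The iRGC libraries thus held more transcript of progenitor and cell cycle genes, and a difference named below may lie in the mix of cells or within cells of a type, since in bulk samples fewer cells of a type and less RNA per cell cannot be told apart.

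Of the 10 genes, 6 were higher in iRGCs (Lbr, Tmpo, Lmna, Lmnb1, Emd and Lmnb2), 3 were lower (Syne1, Sun1 and Sun2), and Syne2 did not pass an adjusted p of 0.1, the false discovery rate the study set. All lamins and Lbr, Emd and Tmpo were thus higher, and the SUN and nesprin genes that passed were lower. The counts of Sun1 can include reads of the Sun1-GFP reporter. In the same test 46.4% of the 15941 genes tested passed, 23.3% higher and 23.1% lower in iRGCs, so a gene that passes is common in this comparison. A log2 fold change beyond 1 in size was reached by 6 members (Lbr, Tmpo, Lmna, Lmnb1, Sun1 and Syne1), 4 of them higher and 2 lower in iRGCs, against 23.1% of all genes (12.1% higher and 11% lower). Lmnb1 lay just below 1 without iRGC replicate 1 (0.998), iRGC replicate 3 (0.988) or cRGC replicate 1 (0.973), and Lmna fell to 0.79 without iRGC replicate 3. In 8 members the libraries of the populations did not overlap, which held for 55.3% of all genes. The median log2 fold change of the members was 0.42, beside 0.00 for all genes tested. Without iRGC replicate 1, the library with Slc6a4 at 2.06 CPM, again 6 members were higher and 3 lower. Without other single libraries 4 (cRGC replicate 1 or 3) to 6 were higher, 5 without iRGC replicate 2 or 3, and 3 were lower each time. With library totals in place of TMM scaling the median of all genes moved to 0.20, and higher genes made up 64.1% of the calls in place of 50.1%. On that scale 6 members were higher and 2 lower, the call of Sun2 being lost.

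**Figure D1:**
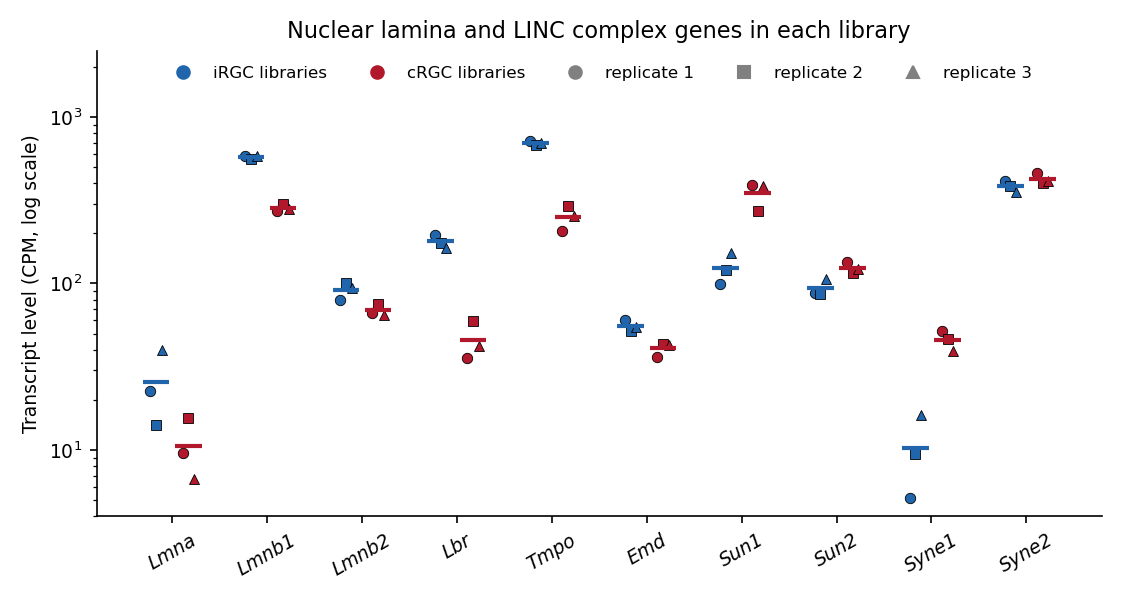
Transcript level of each gene in each of the 6 libraries, in CPM on a log scale; symbols mark replicates and horizontal lines the mean of 3 libraries. The iRGC and cRGC points are apart in 8 genes and mix in Lmna and Syne2.

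Lamin B1 and lamin B2 are the farnesylated B-type lamins that stay at the membrane and are made by nearly all cells, whereas lamins A and C, spliced from Lmna, are abundant in stiff tissues and scarce in the embryonic nervous system. Lmnb1, on chromosome 18, measured 584, 556 and 586 CPM in the iRGC libraries and 274, 301 and 282 CPM in the cRGC libraries. Every iRGC library lay near the same level and every cRGC library at about 1 doubling less. The difference was 2.01-fold (log2 fold change 1.01, SE 0.0948, adjusted p = 0.000207), with coefficients of variation of 2.89% in iRGCs and 4.89% in cRGCs.

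Lmnb2 (chr10:80901203-80918245, minus strand) differed less. Its levels were 79.2, 100.1 and 93.3 CPM in iRGCs and 66.4, 75.7 and 65.0 CPM in cRGCs (log2 fold change 0.40, SE 0.128, adjusted p = 0.0362). The lowest iRGC library stood just above the highest cRGC library. The call was lost when iRGC replicate 2 (0.32, adjusted p = 0.131), cRGC replicate 1 (0.36, adjusted p = 0.106) or cRGC replicate 3 (0.36, adjusted p = 0.118) was left out, and over all alternatives its adjusted p ran from 0.00525 to 0.131.

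Lmna (chr3:88480147-88509956, minus strand) had the largest coefficient of variation of the 10 genes in cRGCs (42.7%). In iRGCs it stood at 51.3%, below only Syne1 (54.2%). Its iRGC libraries read 22.5, 14.1 and 39.7 CPM and its cRGC libraries 9.52, 15.5 and 6.64 CPM, from 206 to 1262 reads a library. The populations overlapped, since iRGC replicate 2 was below cRGC replicate 2. The log2 fold change of 1.27 (SE 0.416) passed the threshold with an adjusted p of 0.0377, and the call was lost without iRGC replicate 3 (0.79, adjusted p = 0.141), without cRGC replicate 1 (1.18, adjusted p = 0.115) and without cRGC replicate 3 (1.02, adjusted p = 0.122). Its adjusted p ran from 0.00667 to 0.141 over the alternatives, with the size between 0.79 and 1.67.

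Lbr, the lamin B receptor, ties B-type lamins and heterochromatin to the membrane and carries a sterol reductase domain. It lies at chr1:181815335-181843046, minus strand. It showed the largest rise of the 10 genes, from 35.8, 59.1 and 42.2 CPM in cRGCs to 196, 176 and 164 CPM in iRGCs. The lowest iRGC library was well above the highest cRGC library. The 3.91-fold difference (log2 fold change 1.97, SE 0.185, adjusted p = 0.000207) stayed between 1.81 and 2.21 on the log2 scale over the 15 alternatives.

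Tmpo (chr10:91147571-91181315, minus strand) encodes the LAP2 proteins, LEM domain proteins that bind lamins and the chromatin protein BAF. Its libraries gave 717, 675 and 695 CPM in iRGCs and 207, 291 and 255 CPM in cRGCs. Here too the populations were far apart, by 2.77-fold (log2 fold change 1.47, SE 0.134, adjusted p = 0.000205). Emd (chrX:74254687-74261548, plus strand) encodes emerin, another LEM domain protein. It moved less than Lbr and Tmpo, with 60.1, 51.8 and 55.1 CPM in iRGCs and 36.3, 43.2 and 42.8 CPM in cRGCs (log2 fold change 0.45, SE 0.130, adjusted p = 0.0232). Exons of other annotated genes cover 13.6% of the exonic bases of Emd and 10.7% of those of Lbr, and whether reads were counted by strand was not given in the sources used here.

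Sun1 and Sun2 are the SUN domain proteins of most tissues. Sun1 (chr5:139200637-139249840, plus strand) read 98.9, 120 and 153 CPM in iRGCs and 391, 271 and 384 CPM in cRGCs. No iRGC library reached a cRGC library, and the level was 2.81-fold higher in cRGCs (log2 fold change -1.49, SE 0.193, adjusted p = 4.87e-04). Both populations carried the Sun1-GFP reporter, whose message holds the Sun1 coding sequence, so reads of the reporter and of the native gene cannot be told apart in these counts. Sun2 (chr15:79724070-79742536, minus strand), which the reporter does not contain, read 87.5, 86.7 and 107 CPM in iRGCs and 135, 116 and 123 CPM in cRGCs. It too was lower in each iRGC library than in any cRGC library, by less (log2 fold change -0.41, SE 0.123, adjusted p = 0.0259). With library totals alone the value for Sun2 was -0.21 (adjusted p = 0.149), on a scale where all genes moved up by 0.20, and its adjusted p over the alternatives ran from 0.00690 to 0.149.

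The nesprins split. Syne1 (chr10:5020917-5551482, minus strand) encodes nesprin-1, a giant spectrin-repeat protein with short and long isoforms. It had the largest fall of the 10, with 5.11, 9.45 and 16.1 CPM in iRGCs and 52.1, 46.6 and 39.1 CPM in cRGCs. The cRGC level was 4.49-fold higher (log2 fold change -2.17, SE 0.362, adjusted p = 0.00161), and the iRGC libraries spread about 3-fold among themselves. Syne2 (chr12:75818134-76110926, plus strand), the gene of nesprin-2, gave 414, 387 and 355 CPM in iRGCs and 459, 399 and 411 CPM in cRGCs. These ranges overlapped and no difference was detectable (log2 fold change -0.14, SE 0.107, adjusted p = 0.359), with a value of 0.07 when library totals alone were used.

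**Figure D2:**
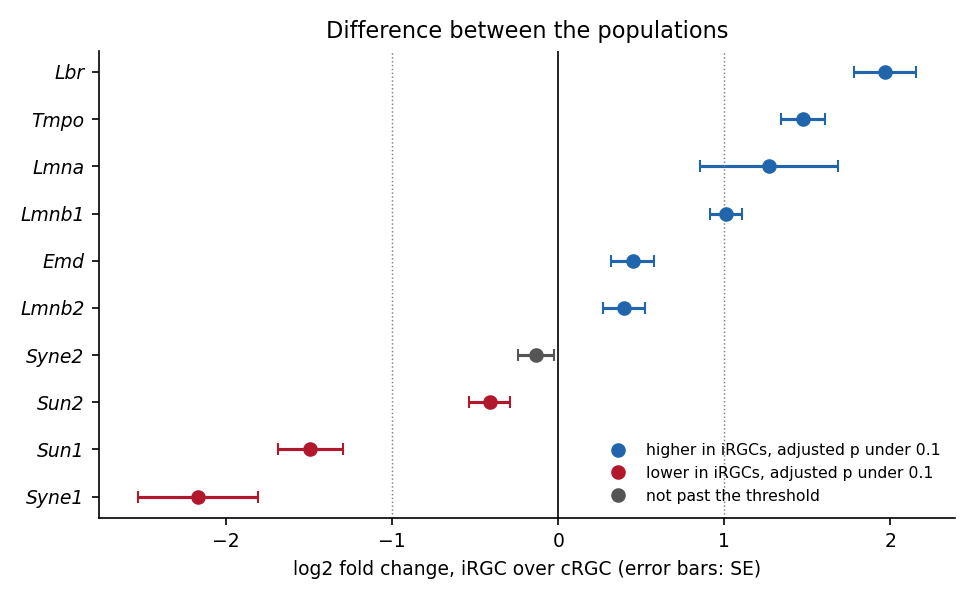
Log2 fold change of each gene, iRGC over cRGC, with its standard error; dotted lines mark a change of 1 in each direction. Lbr stands at 1.97 and Syne1 at -2.17, with Syne2 at -0.14 the only gene not past the threshold.

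Promoters from RefSeq on GRCm38.p6 were matched for 9 of the 10 genes, in 15 promoters, and the 250 bases before each start were searched on both strands. The motifs were CCAAT, read by the factor NF-Y, a TTTGAA element and a TTTAAA element (forms of the cell cycle homology region), TTTCCCGC or else TTTGGCGC for E2F sites, and finally TATAAA. A pair of CCAAT matches occurred in 1 promoter each of Lbr, Tmpo, Sun1 and Sun2, of which the first pair of genes rose in iRGCs and the other pair fell. At least 2 CCAAT matches occurred in 10.1% of 32851 mouse promoters, and at least 1 in 33.8%. TTTGAA, found in 16% of all promoters, was present in those of Lbr and Sun2, and TTTAAA, found in 12.1%, in that of Tmpo. A further promoter of Tmpo held TTTGAA, 2 TTTAAA matches and TTTCCCGC, which 0.895% of all promoters hold. TATAAA, found in 12.4%, occurred in a further promoter each of Sun1 and Syne1, and TTTGGCGC, found in 0.417%, in none of the 15. The stretches below are the 120 bases before the start site, chosen after the matches were seen and shown because genes that moved in opposite directions hold the same letters in them. Capitals mark CCAAT in either orientation (its reverse complement reads ATTGG). They also mark the TTTGAA element, which reads TTCAAA on the opposite strand. In Tmpo they mark TTTAAA. The stretches lie at chr1:181842402-181842521 (minus strand) for Lbr, chr10:91171620-91171739 (minus) for Tmpo, chr5:139200517-139200636 (plus) for Sun1 and chr15:79742537-79742656 (minus) for Sun2.
Lbr: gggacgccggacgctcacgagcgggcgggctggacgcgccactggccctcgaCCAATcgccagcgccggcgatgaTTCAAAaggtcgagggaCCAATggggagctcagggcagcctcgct
Tmpo: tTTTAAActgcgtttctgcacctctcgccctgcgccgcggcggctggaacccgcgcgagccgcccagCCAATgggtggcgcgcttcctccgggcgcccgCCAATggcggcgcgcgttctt
Sun1: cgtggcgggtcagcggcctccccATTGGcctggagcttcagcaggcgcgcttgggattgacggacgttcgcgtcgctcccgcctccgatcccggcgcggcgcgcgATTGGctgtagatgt
Sun2: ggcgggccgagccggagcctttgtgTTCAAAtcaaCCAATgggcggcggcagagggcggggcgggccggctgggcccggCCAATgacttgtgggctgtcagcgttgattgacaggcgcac
In Lbr the CCAAT matches begin 68 and 28 bases before the start, in Tmpo 53 and 21, and in Sun2 85 and 41, all on the strand of the gene, whereas both lie on the other strand in Sun1. The promoters of Syne1, Syne2 and Lmnb2 held no CCAAT, and that of Emd and 1 of those of Lmna held 1. These matches describe letters in a window, not sites in use.

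Levels of different genes were compared per kilobase of annotated exon. In iRGCs Lmnb1 led at 194 CPM per kilobase, before Tmpo at 63.3 and Lbr at 37.5 CPM per kilobase, with no overlap between neighbours. Emd (22.1), Lmnb2 (21.2), Sun2 (17.3), Sun1 (16.3) and Syne2 (14.4 CPM per kilobase) followed, each overlapping the next over the libraries. Lmna at 4.36 and Syne1 at 0.252 CPM per kilobase closed the order. In cRGCs Lmnb1 led again at 96.5 CPM per kilobase, but Sun1 was next at 45.9, above Sun2 at 23.0 and Tmpo at 22.8 CPM per kilobase, and the last pair overlapped on this length. The place of Sun1 in both orders can include reads of the Sun1-GFP reporter. Emd (16.2), Lmnb2 (16.1) and Syne2 (15.8 CPM per kilobase) could not be ordered. Lbr, the third in iRGCs, was the eighth in cRGCs at 9.59 CPM per kilobase, and Lmna at 1.81 and Syne1 at 1.13 CPM per kilobase overlapped at the bottom. The summed exons are longer than the longest annotated transcript, most of all in proportion for Tmpo (10998 against 4441 bases) and Sun1 (7596 against 4134 bases), so a level per kilobase understates genes with unused exons. With the longest transcript as length, Tmpo ranked above Sun2 in cRGCs.

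**Figure D3:**
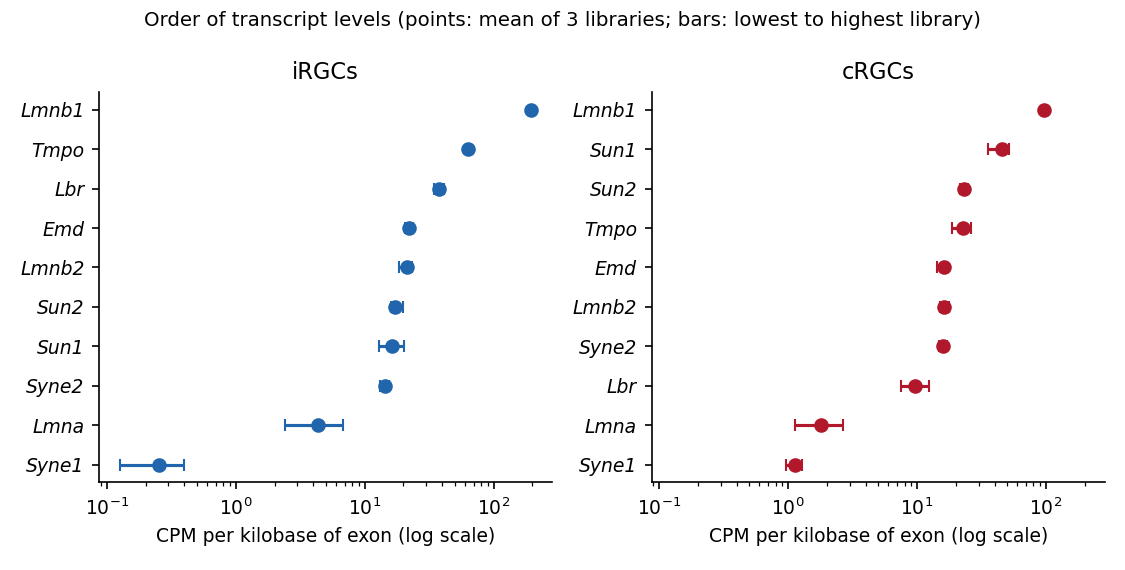
Mean level per kilobase of exon (log scale) for the 10 genes, ordered within iRGCs (left) and cRGCs (right), with bars from the lowest to the highest of 3 libraries. Lmnb1 leads in both, Sun1 is the seventh in iRGCs and the next after Lmnb1 in cRGCs, and Lbr moves from the third place to the eighth. Levels of Sun1 can include reads of the Sun1-GFP reporter.

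Ratios of partner genes within a library do not depend on the scaling of libraries, and 6 were computed, per kilobase. With 3 libraries against 3 the smallest p an exact permutation test can give is 0.1, so none could pass 0.05. The Sun1 to Sun2 ratio was 0.807, 0.985 and 1.02 in iRGCs and 2.06, 1.66 and 2.23 in cRGCs. Sun1 counts thus led in every cRGC library and not clearly in iRGCs (difference -1.08 log2 units, exact two-sided p = 0.1, 0.2 after Benjamini-Hochberg adjustment). Since these counts can include reads of the Sun1-GFP reporter, the ratio of the native genes is not known. With the longest transcript as length, the mean log2 ratio of Sun1 to Sun2 in iRGCs was 0.48 in place of -0.10, with the same difference between populations. The Syne1 to Syne2 ratio was 0.00814, 0.0161 and 0.0299 in iRGCs and 0.0748, 0.0771 and 0.0628 in cRGCs (difference -2.18 log2 units, exact p = 0.1, adjusted 0.2). The Lmnb1 to Lmnb2 ratio was 10.7, 8.04 and 9.08 in iRGCs and 5.97, 5.76 and 6.27 in cRGCs (difference 0.62 log2 units, exact p = 0.1, adjusted 0.2). These 3 ratios did not overlap between the populations.

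The other ratios did overlap. Lmna to Lmnb1 differed by 0.22 log2 units (exact p = 0.7, adjusted 0.7; -0.15 without iRGC replicate 3 and -0.06 without cRGC replicate 3), Lmna to the sum of Lmnb1 and Lmnb2 by 0.29 (exact p = 0.6, adjusted 0.7; -0.08 without iRGC replicate 3), and Lmna to Lbr, the pair of alternative tethers of peripheral heterochromatin, by -0.77 (exact p = 0.2, adjusted 0.3; -0.42 without iRGC replicate 2 and -1.21 without iRGC replicate 3). Of all lamin message per kilobase, Lmnb1 made up 88.4% ± 1.29 in iRGCs and 84.4% ± 1.00 in cRGCs (SD, n = 3 each). Lmnb2 made up 9.65% ± 1.26 and 14.1% ± 0.432, and Lmna 1.97% ± 0.955 and 1.56% ± 0.579. Lamin message was thus nearly all of B type in both populations.

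The 28 further genes of the nuclear envelope listed beside the members gave 26 that could be tested, of which 12 were higher in iRGCs, 4 lower and 10 not past the threshold, with a median log2 fold change of 0.44 (23.3% and 23.1% of all genes were higher and lower, with a median of 0.00). Ankle1, a LEM domain nuclease, rose by 2.40 (SE 0.302), from 3.15, 6.20 and 5.48 CPM in cRGCs to 26.2, 31.9 and 20.2 CPM in iRGCs. Nemp1, an inner membrane protein of eye and germ line development, rose by 1.52 (SE 0.158) and Nrm, nurim, by 1.37 (SE 0.149). Tm7sf2, a sterol reductase related to Lbr, fell by 1.16 on the log2 scale (SE 0.167), from 46.6, 42.3 and 55.4 CPM in cRGCs to 18.4, 21.9 and 24.1 CPM in iRGCs, the opposite direction from Lbr. Tmem120b fell by 1.19 (SE 0.224) and Lemd1 by 1.06 (SE 0.319). Named after its value was seen, the nesprin gene Syne3 read 0.803, 0.679 and 0.693 CPM in iRGCs and 0, 0 and 0.0322 CPM in cRGCs. It entered the test through the iRGC libraries alone. Its call, among the 12 higher, is therefore not read as a result, and no fold is given. Other genes cover 18.3% of the exonic bases of Tmem120b, 13.6% of those of Nrm and 12.1% of those of Tm7sf2.

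Nucleoporins are the subunits of the nuclear pore. Of 31 listed, 30 were matched and tested, and 20 were higher in iRGCs and 10 did not pass, with a median of 0.55, beside 23.3% of all genes higher and 23.1% lower. None was lower by edgeR, nor at an unadjusted p under 0.05 (0), nor by DESeq2 (0) or limma-voom (0). Nup37, of the Y complex, rose by 1.38 (SE 0.217), Ndc1, a membrane anchor of the pore, by 1.37 (SE 0.183), and Nup210, a pore membrane glycoprotein, by 1.13 (SE 0.127). Most of these rises were small, with 3 of 20 beyond 1 on the log2 scale.

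Of 10 genes of peripheral heterochromatin, 4 were higher and 6 did not pass, with a median of 0.21, where 46.4% of all genes passed in either direction. None was lower by edgeR (0 at an unadjusted p under 0.05), DESeq2 (0) or limma-voom (0). The methyltransferase genes Suv39h2 and Suv39h1 rose by 1.37 (SE 0.227) and 0.83 (SE 0.127), and the HP1 gene Cbx1 by 0.70 (SE 0.108). Of the 5 enzymes that farnesylate, cleave or methylate prelamins, Fnta, a farnesyltransferase subunit, was lower by edgeR (log2 fold change -0.37, SE 0.119, adjusted p = 0.0352), a call lost with library totals, where 2 of the 5 enzymes were higher. With TMM scaling none was higher (0 at an unadjusted p under 0.05, by DESeq2 or by limma-voom), and Zmpste24, the protease that matures prelamin A, read 0.29 (adjusted p = 0.179).

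Motors and adaptors pull on nuclei through the LINC complex. Of 16 genes, 12 were lower in iRGCs, 2 higher and 2 not past the threshold, with a median of -0.83, beside 23.1% of all genes lower and 23.3% higher. Dcx, the microtubule protein of migrating neurons, fell by 1.98 (SE 0.175), from 1422, 1238 and 1449.8 CPM in cRGCs to 264, 349 and 428 CPM in iRGCs. The kinesin heavy chains Kif5a and Kif5c fell by 1.74 (SE 0.242) and 1.59 (SE 0.175). The exceptions were Nde1, a dynein regulator of dividing progenitors, at 127, 117 and 106 CPM in iRGCs and 13.2, 35.4 and 27.1 CPM in cRGCs (log2 fold change 2.21, SE 0.303), and Fhod1, a formin that binds nesprin-2, at 2.25 (SE 0.358). Ndel1, the close relative of Nde1, went the other way, at -0.53 (SE 0.162, adjusted p = 0.0288), and is named here for that contrast after its value was seen.

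**Figure D4:**
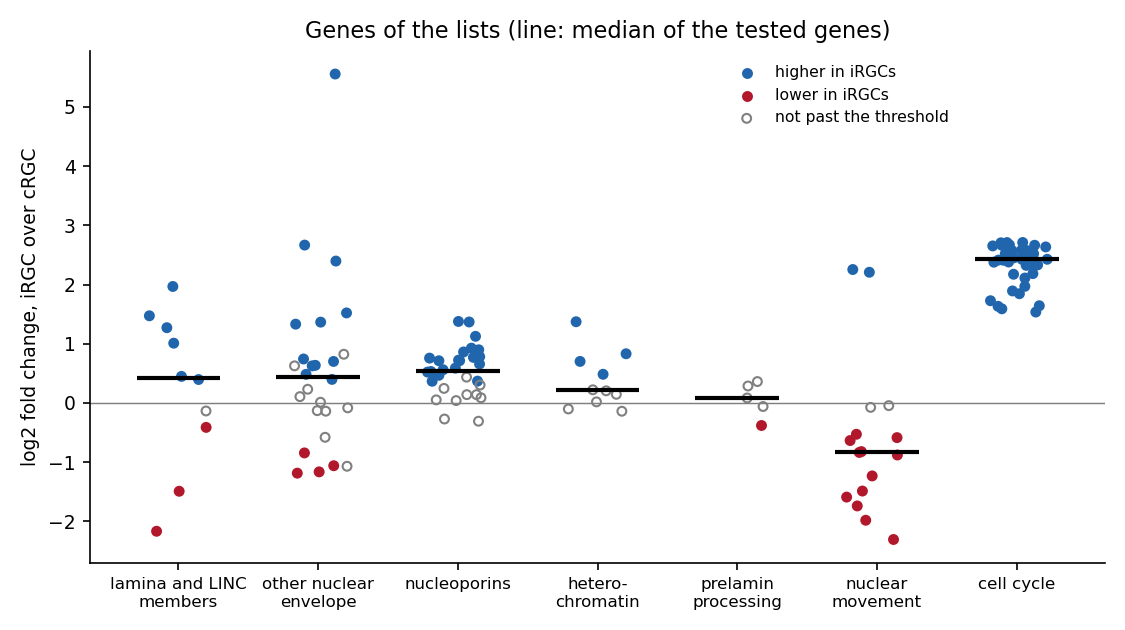
Log2 fold change, iRGC over cRGC, of every tested gene in the members and 6 lists of nuclear envelope, movement and cell cycle genes; filled points passed an adjusted p of 0.1, open points did not, and black lines are medians. The medians of these lists run from -0.83 for nuclear movement genes through 0.42 for the lamina and LINC genes to 2.43 for cell cycle genes.

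In a test where 23.3% of all genes were higher in iRGCs, cell cycle genes had a larger median difference than each of the nuclear envelope lists. All 40 were higher in iRGCs (none lower by edgeR, 0 at an unadjusted p under 0.05, by DESeq2 or by limma-voom), with log2 fold changes from 1.54 to 2.71 and a median of 2.43. Their geometric mean was 134, 121 and 114 CPM in iRGCs and 16.6, 33.8 and 23.7 CPM in cRGCs, and Top2a was the most abundant. Their summed level was 7941, 6891 and 6640 CPM against 955, 1957 and 1343 CPM. Among the cRGC libraries replicate 2 was the highest and replicate 1 the lowest, an order shared by Lbr (59.1 and 35.8 CPM), Tmpo (291 and 207 CPM), Lmnb1 (301 and 274 CPM) and Emd (43.2 and 36.3 CPM), but not by Lmnb2 or Lmna, both lowest in replicate 3. Among the iRGC libraries the list was highest in replicate 1 and lowest in replicate 3, an order that Lbr kept. Tmpo, Lmnb1 and Emd were lowest in replicate 2, Lmna was highest in replicate 3, and Lmnb2 was lowest in replicate 1 (79.2, 100.1 and 93.3 CPM). Lbr, at 1.97, came nearest to the cell cycle median among the members. The other members higher in iRGCs lay below the lowest of the 40 genes: Tmpo (1.47), Lmna (1.27), Lmnb1 (1.01), Emd (0.45) and Lmnb2 (0.40).

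Retinal progenitor markers, of which 14 of 16 were higher and none lower (0 at an unadjusted p under 0.05, by DESeq2 or by limma-voom), had summed levels of 9270.0, 8799 and 7651 CPM in iRGCs and 2108, 3074 and 2818 CPM in cRGCs. Ccnd1 was the most abundant in iRGCs and Pax6 in cRGCs, and Sfrp2 had the largest difference, 2.92 (SE 0.536). Neurogenic precursor markers were higher in 10 of 10, with sums of 1757, 1868 and 1666 CPM against 339, 588 and 506 CPM. By mean level Btg2 was their most abundant gene in iRGCs and Hes6 in cRGCs, and Olig2, at 2.60 (SE 0.439), was the most changed. Of all genes tested, 23.3% were higher and 23.1% lower in iRGCs. RGC markers were lower in 15 of 16, with sums of 3690, 5089 and 7474 CPM in iRGCs and 19300, 17409 and 21326 CPM in cRGCs. Tubb3 was the most abundant of them and Pou4f1 differed most, at -2.28 (SE 0.279). Among the iRGC libraries the RGC marker sum was lowest in replicate 1 and highest in replicate 3, the order also of Sun1 (98.9, 120 and 153 CPM) and Syne1 (5.11, 9.45 and 16.1 CPM). Sun2 (87.5, 86.7 and 107 CPM) did not keep that order and Syne2 (414, 387 and 355 CPM) ran opposite to it. Among the cRGC libraries the geometric mean of the RGC markers was 872, 771 and 782 CPM and their sum was highest in replicate 3. Sun1, Sun2 (135, 116 and 123 CPM) and Syne2 (459, 399 and 411 CPM) kept the order of the geometric mean there but not of the sum, and Syne1 kept neither. The part of cell stage or cell mix in the differences of the 10 genes was not tested.

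**Figure D5:**
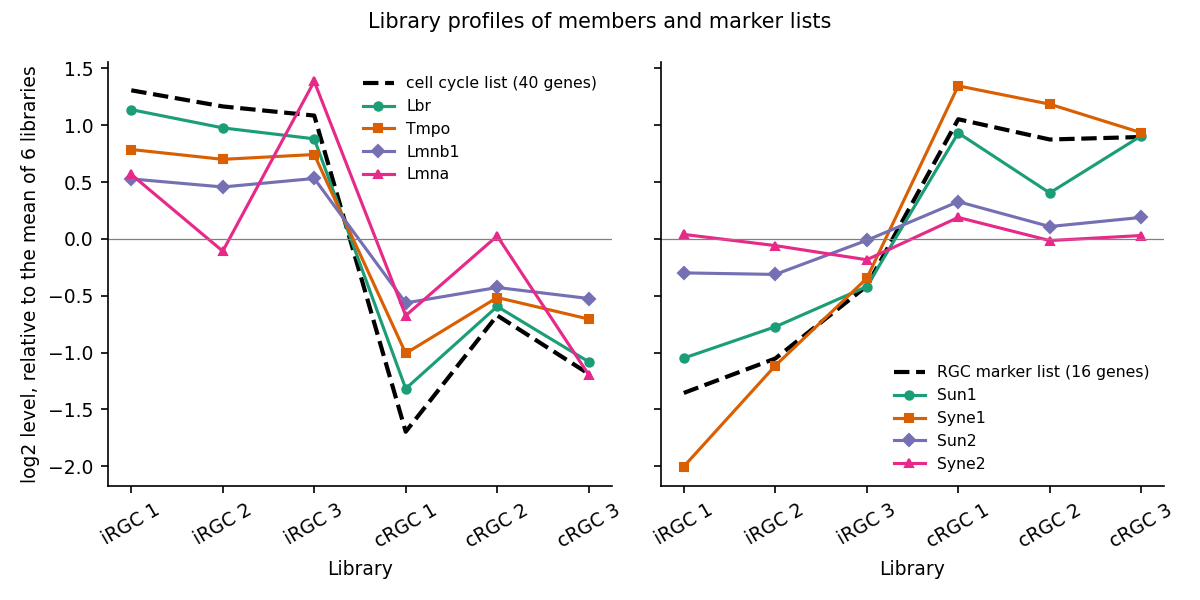
Log2 level in each library relative to the mean of 6 libraries, for 4 members beside the cell cycle list (left) and 4 beside the RGC marker list (right), lists as geometric means. Lbr, Tmpo and Lmnb1 keep the order of the cell cycle list among cRGC libraries, Sun1 and Syne1 that of the RGC list among iRGC libraries, but Tmpo and Lmnb1 depart from it among iRGC libraries, Syne1 among cRGC libraries, Sun2 and Syne2 among iRGC libraries, and Lmna in both. Sun1, Sun2 and Syne2 keep the order of the RGC list among cRGC libraries.

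Vascular and blood markers were also higher in iRGC libraries, in a test where 23.3% of all genes were higher. Markers near 0 in cRGCs could pass the count filter only through the iRGC libraries. The counts of calls in these lists thus follow in part from the filter and are not read as support for a difference. Of 12 endothelial markers 7 could be tested, and all 7 were higher by edgeR and by DESeq2, but 2 by limma-voom and 4 by edgeR without iRGC replicate 2. Their sums were 481, 776 and 436 CPM against 89.1, 109 and 71.9 CPM, with Kdr the most abundant (366, 320 and 418 CPM in iRGCs). The defining markers Cdh5, Tie1 and Eng were at 0 in all cRGC libraries, and Cdh5 read 15.2, 81.2 and 0.157 CPM in iRGC replicates 1 to 3. Of the 7 tested, Cd34 changed most, at 6.95 (SE 1.52), with 75.1 CPM in iRGC replicate 2 and 0.504 CPM in iRGC replicate 3. Mural cell markers were higher in 6 of 7 tested, with sums of 163, 340.4 and 152 CPM against 27.1, 37.6 and 25.4 CPM, Notch3 the most abundant and Rgs5 the most changed at 7.76 (SE 1.72), a value carried by iRGC replicate 2 (3.76, 93.7 and 2.24 CPM in replicates 1 to 3). Lmna read 22.5, 14.1 and 39.7 CPM in the same libraries, lowest in replicate 2. There the geometric means of the endothelial list (9.61, 42.7 and 1.91 CPM) and of the mural list (3.86, 13.8 and 5.09 CPM) were highest in replicate 2. The part of these cells in the difference of Lmna was not tested. Without iRGC replicate 2 the difference of Lmna was 1.56 (adjusted p = 0.0183), that of Lbr 1.98 and that of Tmpo 1.49.

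Lists of 6 other cell types were read in the same way, beside 23.3% of all genes higher and 23.1% lower in iRGCs. Here too, markers near 0 in cRGCs, as in the microglial and erythroid lists, entered the test only through the iRGC libraries. The counts of such calls are not read as support. Fibroblast markers were higher in 2 of 4 tested, with sums of 67.6, 104 and 68.0 CPM against 15.0, 26.0 and 19.1 CPM, led by Fbln1, and Lum was at 0 in all 6 libraries. Microglial markers were higher in 4 of 7 tested, with sums of at most 23.8 CPM in iRGCs and 4.48 CPM in cRGCs, led by Csf1r, a count that fell to 2, 1 and 2 without iRGC replicate 2, iRGC replicate 3 and cRGC replicate 3. Erythroid markers were higher in 4 of 5 tested, with sums of 12.2, 94.6 and 15.7 CPM in iRGCs and at most 5.48 CPM in cRGCs, led by Hbb-bs. DESeq2 called 2 of the erythroid markers, limma-voom 1, and edgeR without iRGC replicate 2 also 1. Of the pigment epithelium markers 4 were tested and none passed by edgeR (0 at an unadjusted p under 0.05), while DESeq2 and limma-voom each called 1 higher and 1 lower, and no sum exceeded 8.03 CPM. Photoreceptor precursor markers were higher in 6 of 7 tested, led by Otx2 (2.37, SE 0.282), with Rxrg lower at -1.08 (SE 0.221) and sums of 823, 654 and 648 CPM against 173, 261 and 209 CPM. Amacrine and horizontal cell markers were higher in 6 of 10, led by Ptf1a (2.38, SE 0.293), with Onecut2 the most abundant and not past the threshold by edgeR (adjusted p = 0.117), though DESeq2 and limma-voom each called 2 of the list lower, Onecut1 and Onecut2, and sums of 548, 523 and 573 CPM against 359.7, 393 and 489 CPM. The geometric mean of this last list was 30.8, 27.5 and 32.9 CPM in iRGCs and 15.4, 19.4 and 14.6 CPM in cRGCs. Lmna had the same order of libraries in both populations, as did Tfap2a, Tfap2b and Prox1 of the list. Ptf1a, Gad2, Onecut1 and Onecut2 departed from it in both populations, Slc32a1 and Lhx1 among iRGC libraries only, and Gad1 among cRGC libraries only. The part of these cells in the difference of Lmna was not tested.

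For 4 members the genes with the closest pattern were sought, by Pearson r of log2 CPM over the 6 libraries among the 12108 tested genes that averaged 100 normalized counts or more. Nearest to Sun1 were Cttn, cortactin (r = 0.9996), and Fam120b (r = 0.999). Ctdsp2 (r = 0.9995) and Gabpa (r = 0.999) were nearest to Lmnb1, and Ptprn and Tmem145 (r = 0.999 each) to Syne1. An r above 0.95 was reached by 1558 genes with Sun1, 1462 with Lmnb1 and 1661 with Syne1, since any gene that separates the populations cleanly shares much of its pattern with any other. Lmna had 30 such genes, with Foxo3 (r = 0.994) and Sall3 (r = 0.985) the closest. Foxo3 read 112, 94.8 and 134 CPM in iRGCs and 82.1 and 77.0 CPM in cRGC replicates 1 and 3, and like Lmna it was no higher in iRGC replicate 2 than in cRGC replicate 2. These values describe 6 libraries of shared depth and sort, and carry no test.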

How the data were processed

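RNA-seq gene counts were deposited per library, as raw whole-number counts. The authors mapped 50-base reads from polyA RNA with HISAT2 2.1.0 to mm10 and counted them with HTSeq 0.11.1 on Ensembl GRCm38 release 89. Reads outside genes (12.3% to 23.2% of uniquely placed reads) and other summary lines were left out. Symbols and exon lengths came from GENCODE M21 (46574 of 47069 identifiers matched; 1 listed nucleoporin, Nup62, did not match and was not used). Promoters came from RefSeq.

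edgeR 4.0.16 (R 4.3.3) fitted population alone, with the quasi-likelihood test, TMM scaling and filterByExpr, in place of the authors' DESeq2 1.26.0. P-values were adjusted by Benjamini-Hochberg over 15941 genes, and SE is the log2 fold change divided by the root of F. The alternatives were other scalings, library totals, DESeq2 1.42.0, limma-voom 3.58.1, other filters, an adjusted p of 0.05, a replicate block, longest-transcript length and leaving out each library. The test was checked on simulated counts. No libraries were duplicates.

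The members and all lists were chosen with earlier results of these data known. Named were the 10 members, from each envelope list up to 3 genes a direction with the largest change past the threshold, no overlap and 100 or more normalized counts on average, and from marker lists the most abundant and the most changed gene and defining markers at 0. List levels are geometric means with a pseudocount of 0.5 CPM.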

Additional observations from a re-analysis of the deposited data

How the results depend on the processing

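Over 15 alternatives, no call on the 10 genes turned direction. Lmnb1, Lbr, Tmpo, Emd, Sun1 and Syne1 kept their calls in each, and Syne2 was not called in any, with a sign that changed under library totals (0.07). The 6 ratio differences moved by less than the spread between libraries, Lmna to Lbr from -1.21 to -0.42 without single libraries, but 2 of them, with groups that overlapped, changed sign: Lmna to Lmnb1 (-0.15 without iRGC replicate 3, -0.06 without cRGC replicate 3) and Lmna to both B-type lamins (-0.08 without iRGC replicate 3). Calls lost were those of Sun2 with library totals (-0.21, adjusted p = 0.149), of Lmna under a replicate block (1.23, adjusted p = 0.111), of Lmna without iRGC replicate 3, cRGC replicate 1 or cRGC replicate 3 (0.79 to 1.18, of a range of 0.79 to 1.67 over all 6 fits without single libraries), and of Lmnb2 without iRGC replicate 2, cRGC replicate 1 or cRGC replicate 3 (0.32 to 0.36, of a range of 0.32 to 0.48). The cause was not tested. Lmnb1 ranged from 0.97 to 1.21, across the fold limit of 1. Replicate numbers did not pair the samples (correlations of deviations -0.012, -0.024 and -0.055), and the block gave 3316 higher and 3435 lower genes in place of 3707 and 3688, with 5 members higher and 3 lower. Members counted as higher ran from 4 to 6 when single libraries were left out. Prelamin enzymes had 2 higher and 0 lower with library totals, the call of Fnta being lost, and 0 to 1 higher without single libraries. Nucleoporins had 1 lower (Gle1) with at least 10 counts in every library, and 0 to 1 lower without single libraries. With the length of the longest transcript, the ranks per kilobase became 5 for Sun1, 7 for Sun2 and 6 for Lmnb2 in iRGCs, and 4 for Sun2 and 3 for Tmpo in cRGCs. Reads on genes differed little across libraries, but iRGC replicate 1 had the fewest genes with a read (16564). A floor of 3 counts corresponds to at most 0.106 CPM, which limits the genes near 0, not the members. With 3 libraries a population, groups of this size were not screened for outliers.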
